A study of Mus musculus with 4 samples.

Results

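Imprinted retrogenes are copies of expressed genes that landed inside an intron of another gene, the host, and are read from the paternal chromosome only. The genes described here are Mcts2 in H13, Nap1l5 in Herc3, Nnat in Blcap and Zrsr1 in Commd1, together with Inpp5f, which holds an imprinted internal start of its own. These 9 genes were taken by symbol from the 34328 protein-coding and lncRNA genes annotated on chromosomes 1 to 19 and X of mm10. Nnat is grouped with the retrogenes here because it is an imprinted gene inside an intron in the same way. The set was chosen by the difference in CpG methylation between the 2 ages, which was known when the genes were picked, so every difference of a member below is a description without a p-value.

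The cells were germline stem (GS) cells, cultures of mouse spermatogonial stem cells from wild-type testis. They were sampled after about 60 months of culture (60M-GS) or about 5 months (5M-GS), in the same medium with GDNF, FGF2 and fetal bovine serum. Both groups came from Green mice, which carry the act-EGFP transgene Tg14(act-EGFP)OsbY01, a C57BL/6 line placed on a DBA/2 background. The labels do not say how many animals or cultures stood behind each age, nor whether the older culture descended from the younger. Methylation came from genome-wide bisulfite libraries made by post-bisulfite adaptor tagging (PBAT), in which adaptors are added once the DNA has been converted. Each age had 2 replicates, which share 1 table of methylated and unmethylated calls, so the spread between replicates is unknown. All intervals below (95%) cover counting error only, and calls on a shared read are not independent.

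For 60M-GS there were 471693518 calls with a median of 22 per CpG, and for 5M-GS 468121185 calls with a median of 21. A CpG was used when each age had 5 calls or more, which left 17634196 CpGs. Of all calls 76.3% were methylated in 60M-GS against 72.4% in 5M-GS, so the older culture was higher in this sum. It takes every CpG with a call at that age, also those not used below, and weighs each by its calls. The share of this shift in the differences below was not tested. The control stretches upstream of H19, Meg3 and Rasgrf1, methylated in the paternal germline, stood at 91.0% to 92.1% in 60M-GS and 91.1% to 93.5% in 5M-GS. Promoter windows of 7 germ cell genes that most somatic cells methylate (Ddx4, Dazl, Mael, Sycp3, Hormad1, Stk31 and Tdrd1) stood at 0.684% to 7.34% in 60M-GS and 1.77% to 7.32% in 5M-GS.

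As background, the CpG-rich start of each of these retrogenes is methylated in growing oocytes and left unmethylated in the male germline. After fertilization the maternal copy keeps its methylation and is silent, while the unmethylated paternal copy is transcribed. In mouse, transcription from Mcts2 and Nap1l5 also goes along with the choice of an earlier polyadenylation site in H13 and Herc3 transcripts from the same chromosome. The zinc finger protein ZFP57 protects such regions in embryos by binding the letters TGCCGC when their CpG is methylated. RNA was not measured in the data used here.

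The starts of 4 retrogenes and of the host H13 are shown because their CpGs carry the contrast between Mcts2 and the rest. Each sequence runs from 250 bases before to 50 after the RefSeq start (GRCm38.p6, the assembly of mm10), 5′ to 3′ on the gene's strand, with every CpG in capitals. The Mcts2 window is chr2:152686898-152687197 (plus strand), that of its host H13 chr2:152669211-152669510 (plus), that of Nap1l5 chr6:58907077-58907376 (minus), that of Nnat chr2:157559828-157560127 (plus) and that of Zrsr1 chr11:22971755-22972054 (plus).
Mcts2: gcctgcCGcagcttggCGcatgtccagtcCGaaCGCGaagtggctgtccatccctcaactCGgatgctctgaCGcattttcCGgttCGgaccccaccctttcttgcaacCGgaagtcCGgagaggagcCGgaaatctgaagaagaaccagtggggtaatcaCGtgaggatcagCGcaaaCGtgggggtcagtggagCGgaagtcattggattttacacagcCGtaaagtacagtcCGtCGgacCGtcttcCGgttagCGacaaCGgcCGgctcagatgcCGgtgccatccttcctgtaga
H13: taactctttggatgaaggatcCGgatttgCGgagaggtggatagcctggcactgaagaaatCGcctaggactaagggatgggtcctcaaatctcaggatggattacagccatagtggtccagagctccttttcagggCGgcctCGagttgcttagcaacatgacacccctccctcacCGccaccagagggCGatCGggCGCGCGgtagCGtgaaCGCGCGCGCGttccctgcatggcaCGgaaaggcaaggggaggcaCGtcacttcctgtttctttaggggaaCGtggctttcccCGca
Nap1l5: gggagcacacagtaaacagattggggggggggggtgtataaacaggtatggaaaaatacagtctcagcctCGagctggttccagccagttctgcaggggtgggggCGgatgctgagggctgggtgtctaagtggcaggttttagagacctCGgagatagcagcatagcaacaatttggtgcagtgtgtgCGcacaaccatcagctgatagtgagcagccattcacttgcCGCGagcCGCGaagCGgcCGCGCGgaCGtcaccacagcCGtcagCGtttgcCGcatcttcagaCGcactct
Nnat: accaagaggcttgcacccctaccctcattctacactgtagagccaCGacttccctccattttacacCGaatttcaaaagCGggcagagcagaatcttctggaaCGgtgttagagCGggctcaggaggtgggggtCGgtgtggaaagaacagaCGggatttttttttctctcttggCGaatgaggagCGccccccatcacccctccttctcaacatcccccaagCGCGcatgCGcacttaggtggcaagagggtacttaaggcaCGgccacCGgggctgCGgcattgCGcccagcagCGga
Zrsr1: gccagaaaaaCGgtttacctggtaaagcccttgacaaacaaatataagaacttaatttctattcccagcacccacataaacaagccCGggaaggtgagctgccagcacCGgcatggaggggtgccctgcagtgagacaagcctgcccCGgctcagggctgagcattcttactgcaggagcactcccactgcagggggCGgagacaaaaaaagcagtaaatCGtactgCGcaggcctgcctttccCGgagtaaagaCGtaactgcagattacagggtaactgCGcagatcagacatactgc

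The printed Mcts2 sequence holds 25 CpGs, more than the 21 of H13, the 17 each of Nap1l5 and Nnat and the 10 of Zrsr1. In the Mcts2 window 375 of 391 calls were methylated in 60M-GS (95.9%, Wilson interval 93.5 to 97.5), against 3 of 579 in 5M-GS (0.518%, 0.176 to 1.51). The same CpGs were thus almost fully methylated in the older culture and almost free of methylation in the younger. In the H13 window 0 of 490 calls were methylated in 60M-GS, with an upper bound of 0.778%, against 5 of 558 in 5M-GS. Nap1l5 had 9 of 495 methylated calls in 60M-GS, against 2 of 511 in 5M-GS. Nnat had 3 of 512 in 60M-GS, against 7 of 421 in 5M-GS. Zrsr1 had 1 of 312 in 60M-GS, against 0 of 248 in 5M-GS, counting a CpG that begins on the last printed base. Near-complete methylation was thus seen in the Mcts2 window of the 60M-GS table and in none of the other 4 windows.

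The letters TGCCGC, searched on both strands, occur in 3813 of 32851 RefSeq promoter windows of this length (11.6%). They occur 1 time in the Mcts2 window, 2 times in that of Nap1l5 and 1 time in that of Nnat, and not in the Zrsr1 and H13 windows. Among the other host windows, that of Commd1 holds 1 match, with 0 of 31 calls methylated in 60M-GS, against 1 of 34 in 5M-GS. The Herc3 window searched, chr6:58833450-58833749, lies inside the gene and holds 4 CpGs. The CpG-dense start of Herc3 was therefore not searched. At the Mcts2 match, which starts 247 bases before the gene start, 16 of 16 calls were methylated in 60M-GS, against 0 of 24 in 5M-GS. Of the 2 Nap1l5 matches, the one 24 bases before the start had 2 of 21 methylated calls in 60M-GS, against 0 of 29 in 5M-GS. The other had 1 of 41 in 60M-GS, against 0 of 44 in 5M-GS. At the Nnat match 2 of 40 calls were methylated in 60M-GS, against 1 of 29 in 5M-GS. A match is a description of letters and not evidence of binding.

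Mcts2 encodes a member of the MCTS family of translation factors and is a retrocopy of the X-linked gene Mcts1. It lies at chr2:152687148-152687946, inside H13, with its start 17687 bp downstream of the H13 start and on the same strand. Its CpG-dense run, here 20 or more CpGs spaced no more than 50 bp apart over 200 bp or more, spans chr2:152686735-152687705 and holds 62 CpGs. In 60M-GS 1237 of 1312 calls in this run were methylated (94.3%, interval 92.9 to 95.4), against 71 of 1463 in 5M-GS (4.85%, 3.87 to 6.08). The difference was 89.4 points (Newcombe interval 87.6 to 90.9). Each of the 58 CpGs with enough calls was higher in 60M-GS by 20 points or more. The share of such CpGs over the genome was not computed, and neighbouring CpGs share reads, so this count is a description only.

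CpG by CpG, the 2 tables did not overlap in the Mcts2 run. The 58 levels ran from 72.7% to 100% in 60M-GS with a median of 96.3%, and from 0% to 39.1% in 5M-GS with a median of 0%. In 60M-GS 57 of the 58 CpGs were at 80% or more and 27 had methylated calls only, whereas in 5M-GS 41 of them had no methylated call at all. Intermediate levels were therefore few: the covered part of the run read as methylated throughout in the older culture. Depth was alike, with a mean of 22.6 calls per CpG in 60M-GS, against 25.2 in 5M-GS. The 4 CpGs left out are the first of the run, from chr2:152686735 to chr2:152686810, so its 5' end was not read. They had 0 calls in 60M-GS and at most 2 in 5M-GS, while the thinnest CpG kept had 5.

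**Figure D1:**
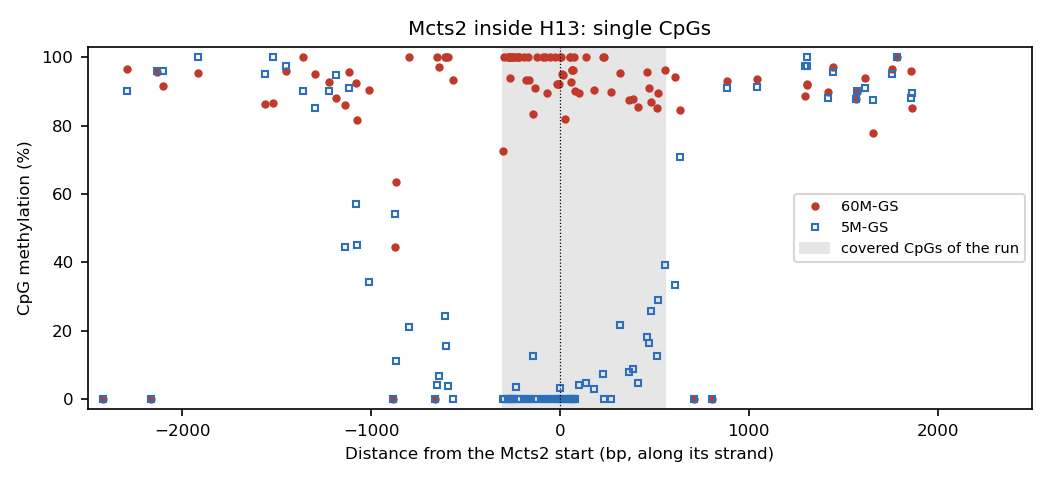
Methylation of single CpGs with 5 or more calls at each age (%) against distance from the Mcts2 start (bp), 60M-GS as filled circles and 5M-GS as open squares. The grey band spans the covered CpGs of the run, where all 60M-GS points lie at 72.7% or higher and all 5M-GS points at 39.1% or lower.

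Outside the centre of the run the 5M-GS level climbed towards that of the surrounding H13 intron. In the 250 bp that begin 500 bp before the Mcts2 start the level was 97.0% in 60M-GS, against 0% in 5M-GS. Over the first 250 bp of the gene it was 95.5% in 60M-GS, against 1.25% in 5M-GS, and over the next 250 bp 90.5% in 60M-GS, against 13.6% in 5M-GS. Upstream, the 250 bp that begin 750 bp before the start stood at 81.2% in 60M-GS, against 8.26% in 5M-GS, and those that begin 1000 bp before it at 60.5% in 60M-GS, against 25.6% in 5M-GS. Some CpGs around the run had no methylated call at either age, which lowers both levels there. Over the whole Mcts2 transcript the level was 91.1% in 60M-GS, against 9.88% in 5M-GS.

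H13 encodes signal peptide peptidase, a membrane protease of the endoplasmic reticulum, and is the host of Mcts2. Its promoter window, which covers 1000 bp before and 500 bp after the start, stood at 3.59% in 60M-GS, against 2.73% in 5M-GS, which differ by 0.860 points (interval -0.287 to 1.99). The CpG-dense run at the H13 start held 61 CpGs at 0.170% in 60M-GS, against 0.483% in 5M-GS. A further run of 33 CpGs near the 3' end of H13, at chr2:152707505-152707864, stood at 0.420% in 60M-GS, against 0.743% in 5M-GS. So within 1 host, the runs on either side of Mcts2 were unmethylated in both tables and the run between them differed by 89.4 points.

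Along H13 with 5 kb on each side, 83 steps of 500 bp held at least 4 covered CpGs. Of these, 4 were higher in 60M-GS by 20 points or more, and they adjoin each other, from upstream of the Mcts2 run to past its end. Their levels ran from 73.8% to 98.0% in 60M-GS, and were 35.6%, 3.42%, 2.11% and 19.8% in 5M-GS, in order from the H13 start. The other steps differed by less than 20 points in either direction, and the median difference over the 83 was -0.441 points. Of the 83 steps, flanks included, 46 were at 80% or more in 60M-GS, against 45 in 5M-GS.

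**Figure D2:**
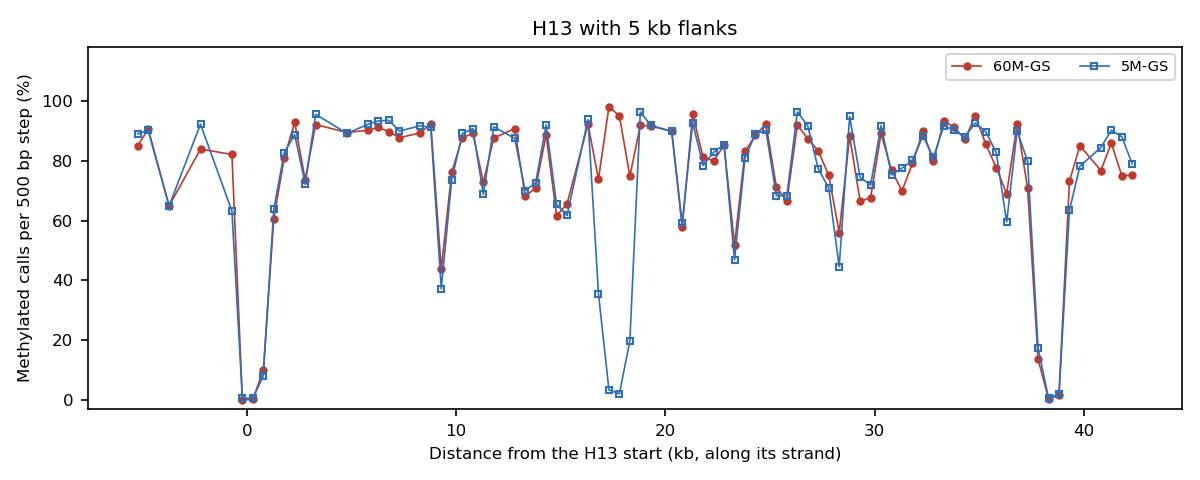
Methylated calls (%) in 500 bp steps with at least 4 covered CpGs against distance from the H13 start (kb), for H13 and 5 kb on each side, 60M-GS as filled circles and 5M-GS as open squares. Both tables dip at the H13 start and near its 3' end, and 5M-GS alone dips over the Mcts2 run. There the 2 central steps, the first of them upstream of the Mcts2 start, are higher in 60M-GS by 94.6 and 92.9 points.

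Nap1l5 encodes a protein of the nucleosome assembly family and lies at chr6:58905233-58907126, on the minus strand inside Herc3, whose own start lies 75671 bp away. Its run of 57 CpGs, chr6:58906508-58907305, had 20 methylated of 1548 calls in 60M-GS (1.29%), against 24 of 1486 in 5M-GS (1.62%). The difference was -0.323 points, with an interval of -1.22 to 0.550. No CpG of the run exceeded 9.52% in 60M-GS or 12.0% in 5M-GS. The promoter window of the host Herc3, which encodes a HECT-type ubiquitin ligase, stood at 1.28% in 60M-GS, against 0.783% in 5M-GS. Retrogene and host start were alike in being nearly free of methylation in both tables.

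Nnat encodes neuronatin, a small membrane protein of neurons and endocrine cells, and lies at chr2:157560078-157562525 inside Blcap on the opposite strand. Its run of 69 CpGs, chr2:157559745-157560646, had 8 methylated of 1717 calls in 60M-GS (0.466%), against 27 of 1716 in 5M-GS (1.57%). The difference of -1.11 points had an interval of -1.85 to -0.442, which lies below 0 but is small beside that of Mcts2. The unmethylated stretch went on beyond the run, with 0% in 60M-GS, against 0.971% in 5M-GS from 1000 to 1249 bases after the Nnat start. The Blcap promoter window, whose gene encodes a small protein first described in bladder cancer, stood at 0.727% in 60M-GS, against 0.439% in 5M-GS. Its host start is 6283 bp from that of Nnat, the shortest such distance among the 4 retrogenes.

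Zrsr1 encodes a relative of the splicing factor U2AF and lies at chr11:22972005-22976496, on the plus strand inside Commd1, which runs on the minus strand. Its start region holds 3 CpG-dense runs. The one with the most CpGs, 55 at chr11:22972320-22972992, had 23 methylated of 1892 calls in 60M-GS (1.22%), against 14 of 2003 in 5M-GS (0.699%), which differ by 0.517 points (interval -0.104 to 1.18). The run before it stood at 0.825% in 60M-GS, against 1.16% in 5M-GS, and the run after it at 0.323% in 60M-GS, against 0.502% in 5M-GS. The promoter window of Commd1, a regulator of copper handling and NF-kB, stood at 3.71% in 60M-GS, against 2.49% in 5M-GS. RefSeq lists a second Commd1 start, on the opposite strand, between the last 2 of these runs, so they cannot be assigned to the retrogene alone.

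Inpp5f encodes a phosphatase of inositol lipids and spans chr7:128611181-128696436. Its internal run, the start of an imprinted shorter transcript, lies 76481 bp downstream of the main start and holds 59 CpGs at chr7:128687846-128688581. In this run 21 of 1417 calls were methylated in 60M-GS (1.48%), against 29 of 1448 in 5M-GS (2.00%), which differ by -0.521 points (interval -1.52 to 0.461). At the main promoter window the level was 13.6% in 60M-GS, against 12.5% in 5M-GS, the highest of the 5 host windows in both tables. The window's CpG-dense run stood at 0.851% in 60M-GS, against 0.651% in 5M-GS, so the higher window level comes from CpGs upstream of the run. No sequence is shown for the internal run.

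**Figure D3:**
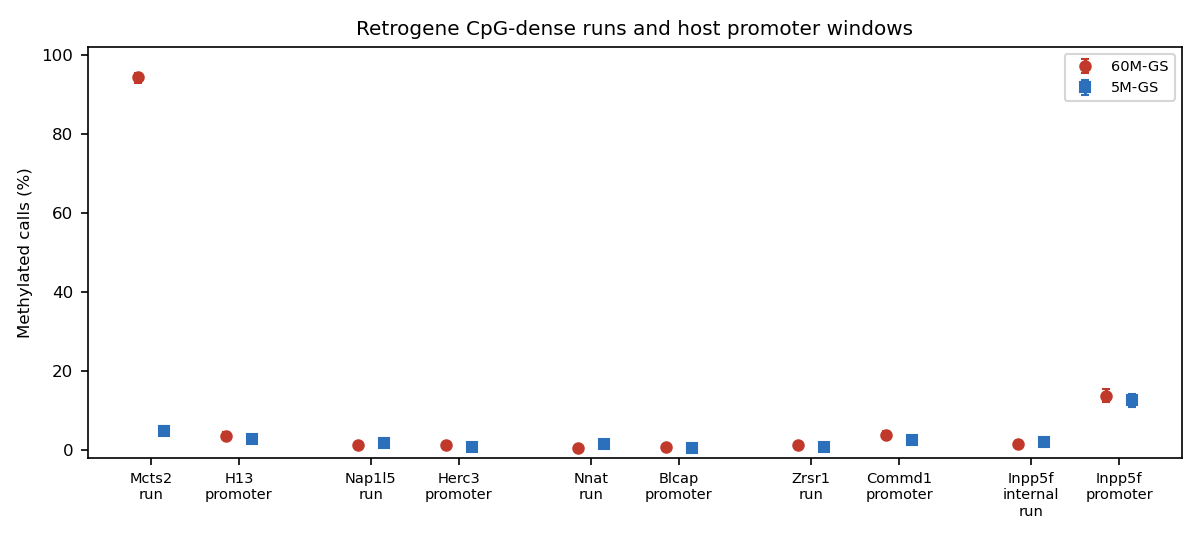
Methylated calls (%) in the CpG-dense run of each retrogene, or the internal run of Inpp5f, and in the promoter window of its host, 60M-GS as circles left of 5M-GS as squares, with 95% Wilson intervals that cover counting error only. The Mcts2 run stands at 94.3% in 60M-GS, against 4.85% in 5M-GS, and every other point lies at 13.6% or lower.

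In the 5 loci, 13 CpG-dense runs were measured. Mcts2 was the 1 run that differed by at least 20 points, while the other 12 runs, with 614 covered CpGs, reached at most 1.48% in 60M-GS, against 2.00% in 5M-GS. Their differences lay between -1.11 and 0.517 points. Over all 23238 runs of the genome, 5.13% were called higher in 60M-GS and 0.120% lower (Fisher's exact test, two-sided, adjusted over all runs, with a minimum difference of 20 points). Among the 19730 runs under 10% in 5M-GS, as all 13 are, 2.50% were called higher. Since the members were chosen with this contrast known, their count of 1 in 13 is set beside these shares and nothing is read from it. By size, 16 of the 23238 runs, Mcts2 included, differed by at least as much as the Mcts2 run, and the median run differed by 0.0877 points.

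**Figure D4:**
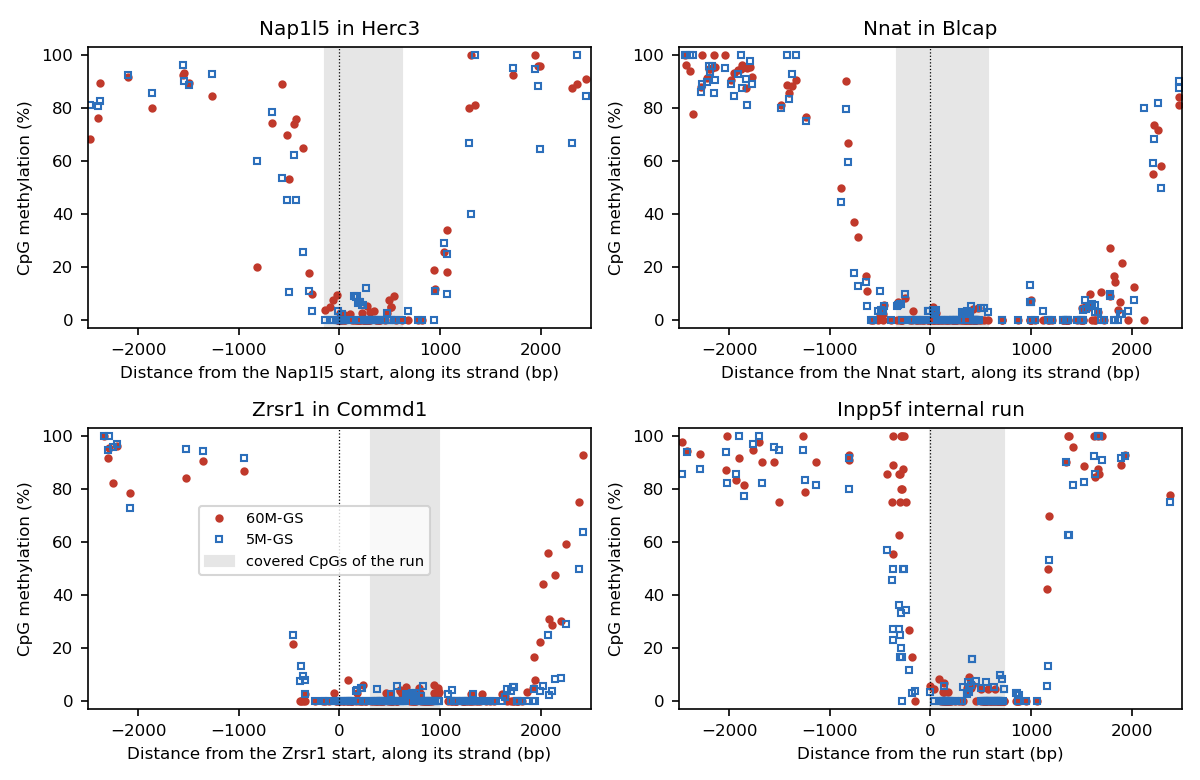
Methylation of single CpGs with 5 or more calls at each age (%) against distance (bp) from the starts of Nap1l5, Nnat and Zrsr1 and from the first CpG of the Inpp5f internal run, 60M-GS as filled circles and 5M-GS as open squares. Grey bands span the covered CpGs of each run, where no CpG exceeds 9.52% in 60M-GS or 15.8% in 5M-GS. Levels climb farther out, and for Nnat and Zrsr1 low levels go on for some distance past the bands.

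Wider differences than inside the 12 unmethylated runs stood at some of their borders. Flanks of 500 bp on either side of the 10 retrogene, internal and host promoter runs (the 3 Zrsr1 runs as 1 block) gave 20 values, of which 17 were higher in 60M-GS by any amount, with a median difference of 3.46 points. Over all 31208 flanks of blocks of runs under 10% in 5M-GS, 65.6% were higher by any amount, with a median difference of 0.635 points. Of the 20, 4 were higher by 20 points or more and 0 lower. Over all 31208, 5.93% were higher by at least 20 points and 0.0929% lower. These flanks come from the contrast that chose the members, so the counts are given beside those shares and nothing is read from them. The flank upstream of the Mcts2 run stood at 77.6% in 60M-GS, against 12.8% in 5M-GS. The flank on the 5' side of the Inpp5f internal run stood at 57.2% in 60M-GS, against 25.0% in 5M-GS, with 208 and 308 calls. The flank upstream of the Nap1l5 run stood at 56.4% in 60M-GS, against 35.8% in 5M-GS. Past the run at the main Inpp5f start, the flank stood at 39.7% in 60M-GS, against 16.4% in 5M-GS. In the Inpp5f and Nap1l5 cases methylation was thus higher at the edge while the run inside stayed at 1.48% or lower in 60M-GS.

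**Figure D5:**
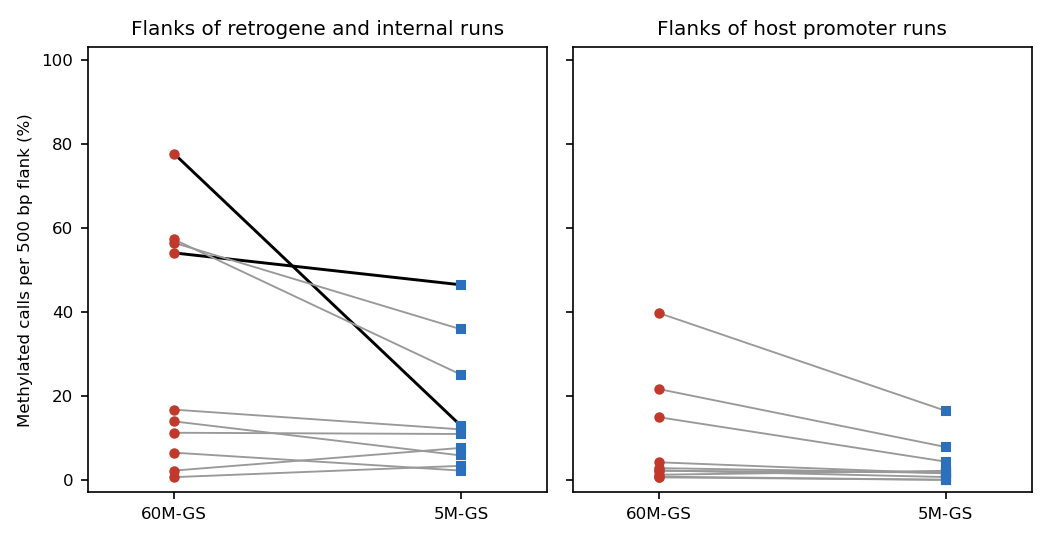
Methylated calls (%) in the 500 bp flanks on both sides of the retrogene and internal runs (left) and of the host promoter runs (right), with 60M-GS on the left and 5M-GS on the right of each panel and a line joining the same flank. Black lines are the 2 flanks of Mcts2. Lines that slope down from left to right are flanks with more methylation in 60M-GS, 17 of 20 here and 65.6% of all 31208 flanks of the genome.

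Each whole locus, the host with 5 kb on either side, was also read in steps of 500 bp and as a sum. Summed over its calls, the H13 locus was higher in 60M-GS by 5.81 points (interval 4.92 to 6.71). Of its 809 CpGs, 78 were higher and 15 lower by 20 points or more, 58 of the 78 being those of the Mcts2 run. Higher CpGs numbered 30 of 880 in Herc3, 10 of 386 in Blcap, 30 of 778 in Commd1 and 54 of 989 in Inpp5f. Lower ones numbered 25, 6, 27 and 23, in the same order. The share over all CpGs of the genome was not computed, so nothing is read from these counts. The Inpp5f locus differed by 1.83 points (1.08 to 2.58), and those of Herc3, Blcap and Commd1 by -0.655, -0.128 and -0.181 points. Of 401 steps, 10 were higher in 60M-GS by 20 points or more and 0 lower, while over the whole genome 4.18% of 1857104 steps were higher and 0.843% lower. Besides the 4 at the Mcts2 run and its borders, the other 6 lay within 916 bp of a CpG-dense run and none lay inside one. A step upstream of the Blcap start stood at 60.6% in 60M-GS, against 18.7% in 5M-GS, the widest difference of the 6 at 41.9 points (interval 33.2 to 49.7). In Inpp5f, a step 345 bp before the internal run stood at 84.9% in 60M-GS, against 54.7% in 5M-GS. Commd1 held 3 of them, namely 51.1% in 60M-GS, against 22.3% in 5M-GS beyond the Zrsr1 runs, 37.5% in 60M-GS, against 16.3% in 5M-GS downstream of its own start, and 81.3% in 60M-GS, against 59.1% in 5M-GS upstream of that start. The last, beside Nap1l5 in Herc3, stood at 69.2% in 60M-GS, against 49.0% in 5M-GS. These 6 steps held 5 to 9 covered CpGs each.

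Other imprinted genes that are methylated in oocytes were read in the same way, as CpG-dense runs within 1000 bp of 12 listed genes. Nespas could not be matched, and the other 11 gave 32 runs. Of these, 2 were higher in 60M-GS by 20 points or more and 0 lower. Over all 23238 runs, 5.13% were called higher and 0.120% lower, as given above. Among runs under 10% in 5M-GS, as all of the list but that of Snrpn are, 2.50% were called higher. Those shares also required the adjusted test, whereas the list was counted by difference only. Nothing is read from the count of 2 in 32, and the list's median difference was -0.405 points. The other 30 runs stood between 0.160% and 3.19% in 60M-GS and between 0% and 4.05% in 5M-GS, a span that also holds every retrogene run except that of Mcts2. Peg10, a gene derived from a retrotransposon, held the wider of the 2 differences. Its run at chr6:4755096-4755468 inside the gene had 91.0% of 535 calls methylated in 60M-GS, against 6.81% of 543 in 5M-GS. The 2 runs at the Peg10 start stood at 0.160% and 0.526% in 60M-GS and at 3.50% and 1.10% in 5M-GS. The other difference lay in the only run found for Snrpn, which encodes a splicing protein, at chr7:60415346-60415678. There 149 of 199 calls were methylated in 60M-GS, against 83 of 166 in 5M-GS, on 13 covered CpGs of 22 (24.9 points, interval 15.0 to 34.2). Unlike the 30 runs above, this run was already partly methylated in 5M-GS. Whether it is the imprinted start of Snrpn was not tested, so it is not read as a change at that imprint. Germline imprint starts such as those of Peg3, Mest and Plagl1 stayed under 1% in 60M-GS, at 0.620%, 0.536% and 0.871%, beside 0.272%, 0.771% and 1.25% in 5M-GS.

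Genes related to the retrogenes by descent were low in both tables at the 4 promoter windows that could be placed, of 6 listed. Mcts1, the X-linked parent of Mcts2, stood at 2.59% of 348 calls in 60M-GS, against 7.59% of 224 in 5M-GS. The window of Zrsr2, the X-linked relative of Zrsr1, stood at 0.823% in 60M-GS, against 1.20% in 5M-GS. Among Nap1l5 relatives, Nap1l1 stood at 1.53% in 60M-GS, against 2.13% in 5M-GS, and Nap1l3 at 1.21% in 60M-GS, against 2.54% in 5M-GS. None of these windows came near the level of the Mcts2 run in 60M-GS.

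Genes next to the hosts gave 13 promoter windows out of 20 listed genes, and none differed by 20 points. Their differences lay between -2.66 and 5.11 points. Rem1, a small GTPase gene before H13, had 58 of 1450 methylated calls in 60M-GS, against 22 of 1265 in 5M-GS. Tial1, which encodes an RNA-binding protein and lies before Inpp5f, had the widest difference, with 7.22% in 60M-GS, against 2.11% in 5M-GS.

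Of 9 listed genes that set or keep imprints, 8 gave a promoter window and none differed by 20 points. Zfp57 itself stood at 9.43% in 60M-GS, against 7.85% in 5M-GS. Zfp445, a second zinc finger protein that protects imprints, stood at 18.4% in 60M-GS, against 7.33% in 5M-GS. Trim28, the corepressor that both recruit, stood at 0.534% in 60M-GS, against 0.417% in 5M-GS. Dnmt3l, a cofactor of methylation in germ cells, stood at 63.4% in 60M-GS, against 74.9% in 5M-GS. The windows of the methyltransferases Dnmt3a and Dnmt3b stood at 0.502% and 1.34% in 60M-GS and at 0.917% and 0.922% in 5M-GS. The window of Dnmt1, the maintenance methyltransferase, stood at 92.1% in 60M-GS, against 94.3% in 5M-GS. That window held 15 CpGs, against 113 in the window of Trim28. For every list gene the window was placed at the first RefSeq start listed, and any other start was not read. The Dnmt1 value therefore describes that start only.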

How the data were processed

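Bisulfite libraries of 60M-GS and 5M-GS cells, 2 replicates each, were aligned with Bismark 0.10.0 to mm10, per the submitters' processing notes. Libraries were made by PBAT, per the labels' protocols. The deposited tables hold the count of methylated and of unmethylated calls per CpG, made by the authors without normalization, and the percent of methylated calls, which the authors computed from those counts. Each table pools the replicates of an age. How calls were filtered, deduplicated or merged over strands is not given in the sources used here. Listed positions matched the C of CpGs in RefSeq promoter sequences.

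Levels were computed from the counts as summed methylated calls divided by all calls, over CpGs with 5 or more calls at each age (Python 3.11.15, scipy 1.17.1). Regions needed at least 4 such CpGs. Genes, starts and strands came from RefSeq GRCm38.p6, with a host start taken as the annotated start nearest the CpG-dense run at its 5' end. Intervals are Wilson and Newcombe intervals. All CpG-dense runs were compared by Fisher's exact test with Benjamini-Hochberg adjustment, which compares 2 pooled libraries and not the ages as such. On simulated calls at the real depths, without correlation within reads, 200 of 200 runs changed by 30 points were called and 0 others. Unchanged runs had the same level at both ages there, without spread between cultures. The simulation therefore cannot show how often 2 pooled libraries differ for other reasons. Members, gene lists and tests were chosen with earlier results of these data known. Named genes are all members, and of each list the regions that differed by at least 20 points; other list genes given with values were chosen after their values were seen. Alternatives were the minimum calls, equal weight per CpG, removal of deep CpGs, and other run and window definitions.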

Additional observations from a re-analysis of the deposited data

How the results depend on the processing

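No paired analysis was possible because each table pools its replicates, and for the same reason no replicate could be left out. Of 76 values under alternatives, 56 stayed within the interval of the difference as first computed (or within 1.5 times a count). The Mcts2 difference kept its sign and stayed above 80 points: 91.1 with equal weight per CpG, 81.2 over looser runs (at least 10 CpGs, gaps of at most 100 bp) and 81.2 over the gene span. Looser runs gave 3.25 points for Nap1l5 and 2.10 for Zrsr1, and the Zrsr1 gene span 2.95. These wider stretches take in more of the flanks. Equal weight gave 3.01 points for the Commd1 promoter. Wider windows, 2000 bp before to 1000 bp after the start, gave -0.470 points for H13, 4.70 for Blcap and 2.83 for Commd1. Calls over all 23238 CpG-dense runs, 1192 higher and 28 lower, were 702 and 3 with calls divided by the CpGs of a run. They were 581 and 1 with a minimum difference of 50 points. With looser runs they were 21719 and 2527, out of a different set of runs whose number is not given here. These last counts are therefore no share of the 23238. Steps higher by 50 points or more numbered 3 of 401 in the 5 loci, all overlapping the Mcts2 run, and 18234 of 1857104 in the genome. In the genome 650 were lower by as much. With at least 10 calls per CpG, 1 step of the 5 loci was lower by 20 points, beside 13521 in the genome. With a median depth of 22 calls for 60M-GS, against 21 for 5M-GS, a single CpG cannot show a difference of a few points.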

Other observations

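Some CpGs in otherwise methylated surroundings had no methylated call in either table. Such CpGs were counted where at least 10 calls were present in both tables and the 6 nearest covered CpGs had a median of 80% or more in 60M-GS. The H13 locus held 34 of them among 567 CpGs in such surroundings (6.00%), whereas the other 4 host loci together held 1 among 1917. Over all chromosomes the share was 1.27% of 12149698. Windows of 50 kb with at least 100 such surroundings had a median share of 0%, and 9.13% of 45277 windows reached 5%. None of the 34 lay in the Mcts2 run, so the level of that run does not rest on them. The position chr2:152687953, just past the annotated end of Mcts2, had 0 of 54 methylated calls in 60M-GS, against 0 of 30 in 5M-GS. Whether the sequenced strain carries a CpG at these positions was not tested, and this count was chosen after single CpGs of the locus had been seen.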
